A study of Mus musculus with 21 samples.

Results

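Genes linked to inherited or sporadic Parkinson disease (PD), Pink1, Park7, Fbxo7, Vps35, Atp13a2, Lrrk2 and Uchl1, were followed in the midbrain of mice given the neurotoxin MPTP, the hormone irisin or both. They were chosen by gene name and all 7 were found in both tables of gene counts, among 33829 genes for the pre-treatment experiment and 55385 for the delayed one, with 33622 genes in both. RNA-seq covered 21 male C57BL/6 mice in 7 groups of 3, aged 6 weeks by the labels, with no transgene or deleted gene named in any group. In the pre-treatment experiment (9 mice) the control group had ddH2O for 10 days, the MPTP group had ddH2O for 5 days and then MPTP at 30 mg/kg for 5 days, and the third group had irisin at 200 μg/kg for 5 days and then MPTP. In the delayed treatment experiment (12 mice) the groups were ddH2O control, ddH2O followed by irisin (irisin alone), MPTP followed by ddH2O (MPTP), and MPTP followed by irisin. Agents were given by intraperitoneal injection once a day at the same doses and for the same number of days in both experiments. MPTP is a toxin model of dopaminergic cell loss in otherwise healthy young mice, the labels name the tissue midbrain while the methods describe hand-dissected nigral tissue, and each replicate was taken as 1 mouse, with pooling of animals not given in the sources used here.

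The products of these genes meet in a few cell processes. PINK1 is a kinase that accumulates on damaged mitochondria and marks them for removal by mitophagy, DJ-1 (the product of Park7) protects cells against oxidation, and FBXO7 is the substrate receptor of an SCF ubiquitin ligase that also binds the proteasome and takes part in mitophagy. VPS35 is the core subunit of the retromer, which carries receptors from endosomes back to the Golgi or the cell surface, ATP13A2 is a lysosomal pump that exports polyamines, and LRRK2 is a kinase that phosphorylates Rab GTPases on endolysosomal membranes. UCHL1 is a deubiquitinase that makes up a large share of the soluble protein of neurons. Mutations of most of these genes cause familial PD, and mitochondrial complex I, which the active product of MPTP blocks, lies upstream of the damage that PINK1 senses.

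Pink1, Atp13a2 and Park7 lie on mouse chromosome 4 in the coordinates of the tables, which fit genome build GRCm38. Their positions were Pink1 (ENSMUSG00000028756, minus strand, chr4:138313409-138326307), Atp13a2 (ENSMUSG00000036622, plus strand, chr4:140986873-141007330) and Park7 (ENSMUSG00000028964, minus strand, chr4:150897133-150914437). Uchl1 (ENSMUSG00000029223) was on the plus strand at chr5:66676091-66687234, Vps35 (ENSMUSG00000031696) on the minus strand at chr8:85260392-85299802, Fbxo7 (ENSMUSG00000001786) on the plus strand at chr10:86021972-86051873 and Lrrk2 (ENSMUSG00000036273) on the plus strand at chr15:91673175-91816120. Counts are per gene, so that transcripts of one gene were not told apart.

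The sequence before the RefSeq start (GRCm38.p6) is shown for the pair of genes that varied most alike over the mice, Pink1 and Park7, and for the pair with the largest differences in the delayed treatment experiment, Uchl1 and Atp13a2. Each run is written on the gene's own strand from the 250 bases before the start, without bases that lie inside the gene as the tables place it at its 5′ end. Capitals mark a GC box (GGGCGG, or CCGCCC on the other strand). The runs are at chr4:138326308-138326546 for Pink1, chr4:150909922-150910171 for Park7 (inside the gene as the tables place it), chr5:66675871-66676090 for Uchl1 and chr4:140986671-140986872 for Atp13a2.
Pink1: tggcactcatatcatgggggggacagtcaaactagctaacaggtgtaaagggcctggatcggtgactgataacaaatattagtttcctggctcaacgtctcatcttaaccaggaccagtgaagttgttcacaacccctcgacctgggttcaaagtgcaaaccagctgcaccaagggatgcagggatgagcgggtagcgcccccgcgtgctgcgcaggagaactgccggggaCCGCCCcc
Park7: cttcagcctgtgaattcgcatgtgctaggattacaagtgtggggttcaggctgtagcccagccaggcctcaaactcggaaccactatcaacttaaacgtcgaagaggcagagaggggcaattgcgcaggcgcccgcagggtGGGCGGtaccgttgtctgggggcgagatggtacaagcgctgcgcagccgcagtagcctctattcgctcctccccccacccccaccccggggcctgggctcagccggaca
Uchl1: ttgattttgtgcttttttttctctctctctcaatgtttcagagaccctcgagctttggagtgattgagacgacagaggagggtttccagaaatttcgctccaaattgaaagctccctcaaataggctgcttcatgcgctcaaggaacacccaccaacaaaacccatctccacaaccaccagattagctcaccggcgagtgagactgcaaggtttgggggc
Atp13a2: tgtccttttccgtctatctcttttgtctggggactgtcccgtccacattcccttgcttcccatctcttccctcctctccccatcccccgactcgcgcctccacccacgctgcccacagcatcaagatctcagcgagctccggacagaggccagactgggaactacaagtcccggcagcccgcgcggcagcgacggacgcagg

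Windows of 250 bases were found for 6 of the 7 genes (Vps35 was not among them), and Fbxo7 had 2 starts. Over whole windows, the GC box occurred 2 times before Lrrk2, 1 time before each of Pink1, Park7 and Atp13a2 (for Atp13a2 in the bases left out above), and not before Uchl1 or Fbxo7, against 32.7% of 32851 RefSeq windows of the same length that held at least 1. The other motifs searched, on both strands, were CACGTG (E-box core, in 6.02% of windows), CCAAT (33.8%), TATAAA (12.4%), TGACGTCA (CRE, 1.55%) and TGACNNNGC (antioxidant response element, 10.2%). No window of the 6 genes held any of these 5.

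Total counts were 66.7 to 75.6 M (mega) per mouse in the pre-treatment experiment and 48.8 to 77.2 M in the delayed treatment experiment. The fewest counts of any of the 7 genes in a mouse were 857 (exact Poisson 95% interval 801 to 916, counting error only), and all 7 passed the filter on low counts. All 8 markers of dopaminergic neurons were detected in both experiments, and none passed the test in any comparison. Th, the rate-limiting enzyme of dopamine synthesis, was at 57.8 ± 6.32 CPM (counts per M of scaled library size, SD, n = 3) in delayed control mice and at 36.2 ± 8.53 CPM in MPTP mice, a log2 difference of -0.68 (SE 0.14, adjusted p = 0.188). In the pre-treatment experiment Th was at 46.5 ± 10.9 CPM in control mice and 39.1 ± 10.9 CPM in MPTP mice (log2 difference -0.25, SE 0.26, adjusted p = 0.939), and at 26.7 ± 7.12 CPM after irisin then MPTP (-0.80 against control, SE 0.26, adjusted p = 0.562). The dopamine transporter Slc6a3 was at 90 ± 26.9, 56.3 ± 7.98 and 30.4 ± 6.02 CPM in these 3 groups (log2 differences from control -0.68, SE 0.23, adjusted p = 0.818, and -1.57, SE 0.24, adjusted p = 0.0886), the latter the nearest of the 8 markers to the threshold. MPTP versus control gave log2 differences below 0 for all 8 markers with delayed treatment, but for 3 of 8 in the pre-treatment experiment. There Slc18a2, Ddc, Nr4a2, Pitx3 and En1 had values from 0.16 to 0.58, with SEs from 0.21 (En1) to 1.40 (Pitx3). The highest, Pitx3, was near the floor, at 0.297 ± 0.206 CPM in control mice and 0.445 ± 0.484 CPM in MPTP mice. A rise of these markers is therefore not shown. Summed markers of choroid plexus ran from 3.61 to 1570 CPM between single mice, and those of serotonergic neurons from 17.9 to 272 CPM. Both ends of the serotonergic range were in the pre-treatment experiment, in a control and an MPTP mouse. The part of these cell types in the results above and below was not tested. These are bulk samples, so that fewer cells of a type and less RNA per cell cannot be told apart.

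Per gene length, Uchl1 was the most abundant of the 7 and Lrrk2 the least. In the deposited FPKM values, the median over the mice of the pre-treatment experiment was 205 for Uchl1, 137 for Pink1, 38.2 for Park7, 19 for Vps35, 14.7 for Atp13a2, 12.9 for Fbxo7 and 1.64 for Lrrk2. In the delayed treatment experiment the medians were 251 for Uchl1, 173 for Pink1, 41.4 for Park7, 23.2 for Atp13a2, 16.5 for Vps35, 12.7 for Fbxo7 and 1.58 for Lrrk2, so that Atp13a2 stood above Vps35. The ranges of neighbours in this order did not overlap over single mice, except those of Atp13a2 (12.6 to 15.1 FPKM) and Fbxo7 (11.5 to 13.9 FPKM) in the pre-treatment experiment. No order between genes was tested.

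**Figure D1:**
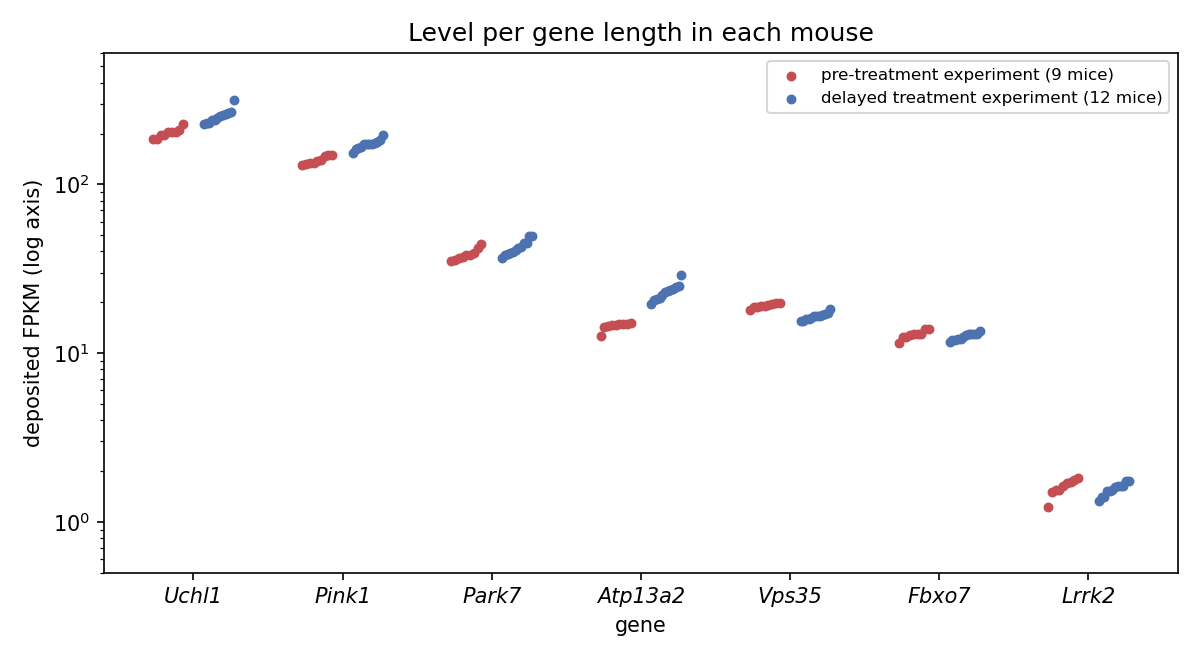
Deposited FPKM (log axis) of each of the 7 genes in every mouse, 1 dot per mouse, with the 9 mice of the pre-treatment experiment in red and the 12 of the delayed treatment experiment in blue. Uchl1 and Pink1 lie above 100 FPKM and Lrrk2 below 2 FPKM in every mouse.

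CPM values below are scaled by trimmed mean of M-values (TMM) within each experiment, and serve to compare mice for one gene. None of the 7 genes passed an adjusted p of 0.05 in edgeR's quasi-likelihood test in any of 8 comparisons between groups. Over these 56 log2 fold changes the range was -0.31 to 0.27, and the 95% intervals, which are not adjusted for their number, had a median half-width of 0.16 and lay between 0.713 and 1.43 as fold changes. Comparisons within an experiment share mice, so that their values are not independent of each other.

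**Figure D2:**
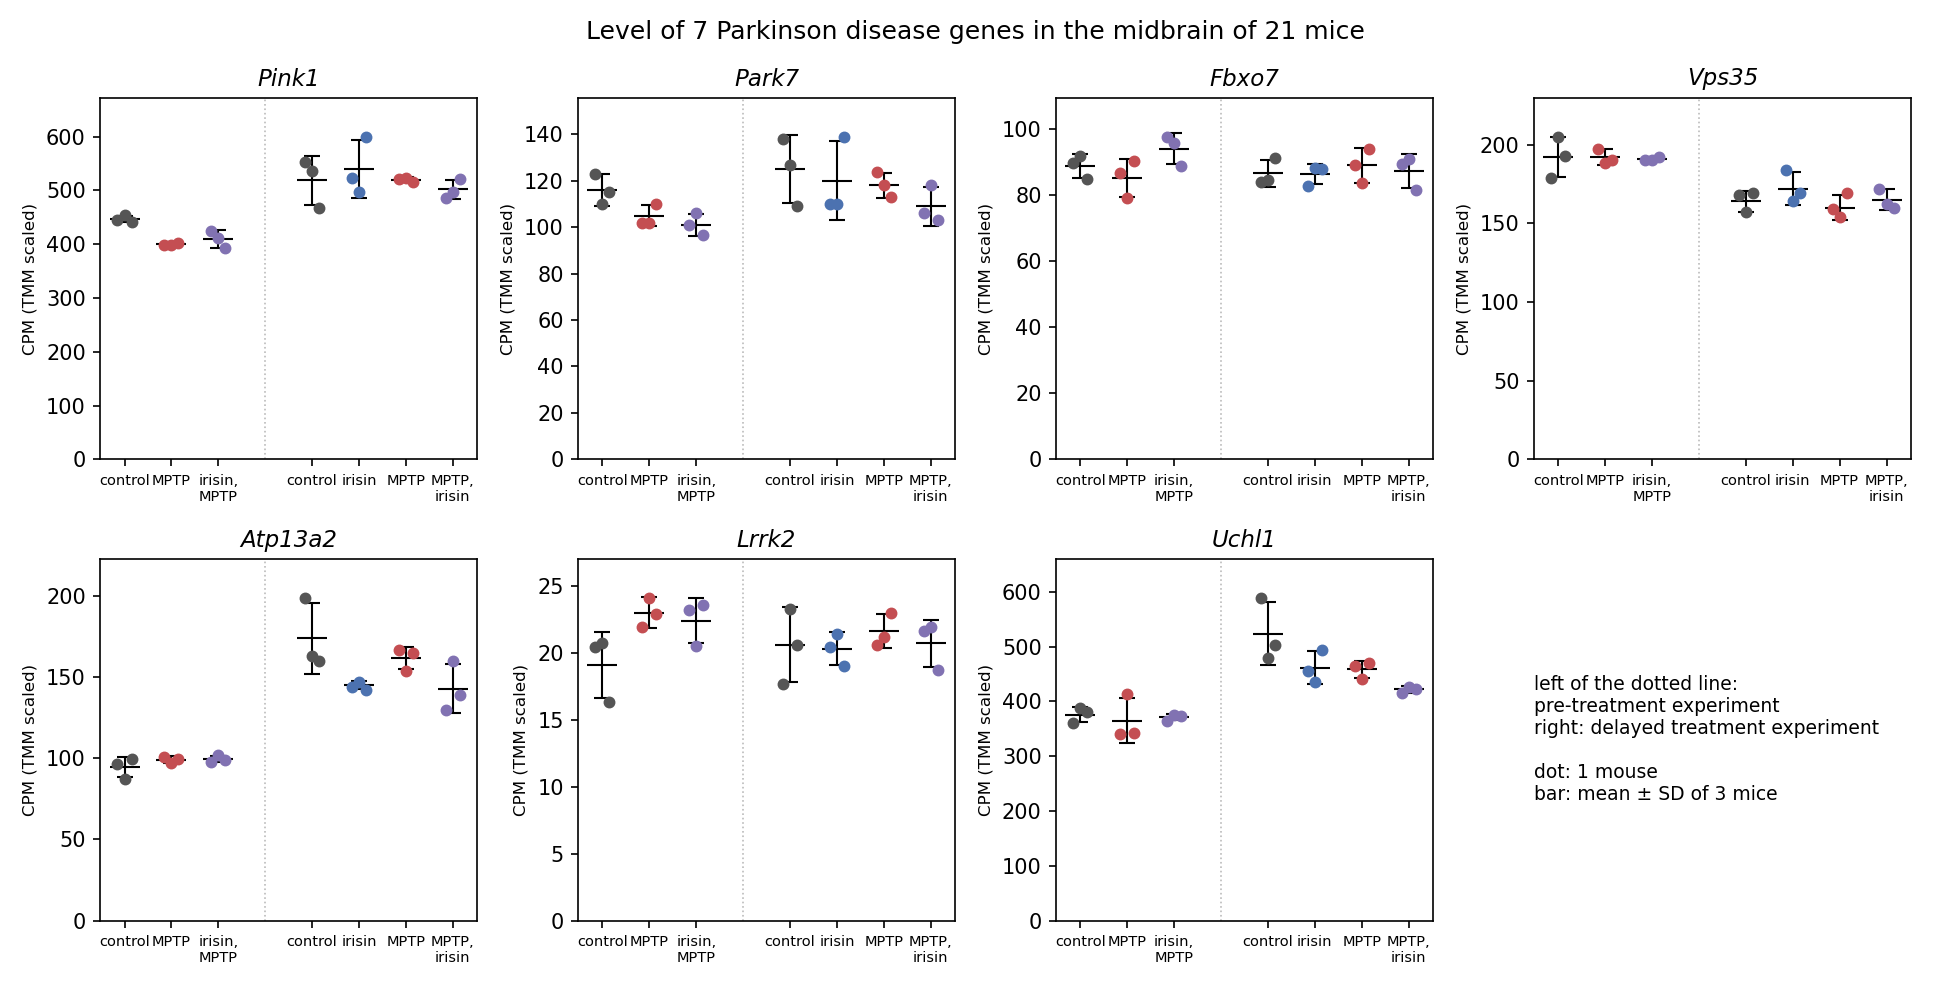
TMM-scaled CPM (linear axis from 0) of each gene in each mouse by group, 1 dot per mouse, with the mean and SD of the 3 mice; the dotted line separates the pre-treatment experiment (left) from the delayed treatment experiment (right). The MPTP mice lie below the control mice for Pink1 in the pre-treatment experiment, and the mice given MPTP then irisin lie lowest for Uchl1 in the delayed treatment experiment.

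Of the genes of mitochondrial quality control, Pink1 had its lowest group mean after MPTP in the pre-treatment experiment. Pink1 was at 445, 454 and 442 CPM in the 3 control mice, at 398, 398 and 403 CPM in the MPTP mice and at 425, 411 and 393 CPM in the mice given irisin then MPTP. All 6 MPTP-treated mice were below the 3 control mice, and the 2 MPTP-treated groups overlapped each other. Of all genes tested, 11.6% did not overlap between MPTP and control, and 13.6% between irisin then MPTP and control. The share with both at once was not computed. The MPTP level was 0.894 times that of the control mice (95% interval 0.831 to 0.962, log2 fold change -0.16, SE 0.046), with an adjusted p = 0.803. Irisin then MPTP gave 0.916 times the control level (0.851 to 0.985, adjusted p = 0.632) and 1.02 times the MPTP level (0.952 to 1.10, adjusted p = 0.991).

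The delayed treatment experiment did not show this order for Pink1. There Pink1 was at 553, 537 and 467 CPM in control mice, 523, 497 and 600 CPM with irisin alone, 521, 524 and 516 CPM with MPTP and 486, 498 and 522 CPM with MPTP then irisin. The 4 groups overlapped, and MPTP mice were at the control level (1 times, 0.893 to 1.13, adjusted p = 0.996). The MPTP effect on Pink1 differed between the experiments by 0.18 on the log2 scale (delayed minus pre-treatment, 95% interval -0.020 to 0.37), which did not pass the test (adjusted p = 0.886).

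Park7 was at 123, 110 and 115 CPM in the pre-treatment control mice, 102, 102 and 110 CPM in MPTP mice and 101, 106 and 96.8 CPM in mice given irisin then MPTP. All 3 mice of the last group were below the control mice, at 0.874 times their level (0.785 to 0.973, log2 fold change -0.19, SE 0.068, adjusted p = 0.605). Between these groups 13.6% of all genes tested did not overlap. Delayed treatment group means of Park7 were 125 ± 14.7, 120 ± 17, 118 ± 5.52 and 109 ± 8.31 CPM (SD, n = 3) for control, irisin alone, MPTP and MPTP then irisin. These groups overlapped. The lowest of them, MPTP then irisin, was at 0.873 times the control level (0.739 to 1.03, adjusted p = 0.627).

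Fbxo7 stayed between 79.1 and 97.8 CPM in all 21 mice. Its largest difference was between irisin then MPTP (94.2 ± 4.72 CPM) and MPTP (85.4 ± 5.74 CPM) in the pre-treatment experiment, at 1.10 times (0.985 to 1.24, adjusted p = 0.871). With delayed treatment all 5 fold changes of Fbxo7 were between 0.982 and 1.03, with intervals inside 0.888 to 1.14. An antisense gene, A230060F14Rik, overlaps 358 bases at the Fbxo7 start and Gm24430 lies inside the gene, with at most 1.33% of the Fbxo7 count in any mouse. The short RNA genes inside Pink1, Gm27646 and Mir7019, had at most 2 counts in a mouse.

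The 26 mitophagy genes fixed as a list around Pink1 (import subunits, adaptors, receptors and deubiquitinases) had no gene past the threshold in any of the 8 comparisons. At an unadjusted p under 0.05 there were 0 to 7 of them, with 7 in irisin alone against control, where 8.97% of all genes reached that level, and their median log2 fold change there was -0.006. Mfn2, which fuses outer mitochondrial membranes and is a PINK1 substrate, was at 211 ± 4.88 CPM in delayed control mice, 244 ± 14.6 CPM with irisin alone, 244 ± 4.48 CPM with MPTP and 237 ± 2.66 CPM with MPTP then irisin (log2 fold change of irisin alone against control 0.21, SE 0.049, adjusted p = 0.295). Its level in the pre-treatment controls ran from 105 to 213 CPM. Bnip3, a mitophagy receptor induced by hypoxia, was at 114 ± 4.43, 128 ± 7.38, 126 ± 2.29 and 121 ± 2.28 CPM in the same groups (log2 fold change of irisin alone 0.17, SE 0.054, adjusted p = 0.452). Of the 8 genes listed around Fbxo7 (the SCF core, other F-box proteins and the proteasome inhibitor subunit Psmf1), none passed in any comparison and none had an unadjusted p under 0.05. Psmf1, whose product binds FBXO7, had the smallest unadjusted p of these genes over the 5 comparisons that change 1 agent. It was at 42.2 ± 2.53 CPM with MPTP then irisin and 46.5 ± 2.69 CPM with MPTP (log2 fold change -0.14, SE 0.071, adjusted p = 1). Fbxo2, a brain F-box protein that recognises glycoproteins, was at 120 ± 13 CPM with irisin alone and 140 ± 17.7 CPM in control mice (log2 fold change -0.23, SE 0.12, adjusted p = 0.588).

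Among the endolysosomal genes, Atp13a2 stood apart in the delayed treatment experiment. Atp13a2 was at 199, 163 and 160 CPM in control mice, 144, 147 and 142 CPM with irisin alone, 167, 154 and 165 CPM with MPTP and 130, 160 and 139 CPM with MPTP then irisin. All 3 mice given irisin alone were below the 3 control mice, as were those given MPTP then irisin, whose highest mouse met the lowest control mouse at 160 CPM after rounding. No overlap with control was found for 15.1% (irisin alone) and 14.6% (MPTP then irisin) of all genes tested. Irisin alone was at 0.830 times the control level (0.721 to 0.956, log2 fold change -0.27, SE 0.093, adjusted p = 0.49), and MPTP then irisin at 0.821 times (0.713 to 0.946, log2 fold change -0.28, SE 0.093, adjusted p = 0.421). MPTP was at 0.932 times (0.809 to 1.07, adjusted p = 0.831).

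One control mouse, the first replicate, held the highest Atp13a2 and Uchl1 levels of the delayed treatment experiment. Without it the log2 fold change of Atp13a2 against control was -0.16 (SE 0.079) for irisin alone, -0.18 (SE 0.079) for MPTP then irisin and 0.004 (SE 0.080) for MPTP. In the pre-treatment experiment Atp13a2 stayed between 87.5 and 102 CPM, the 3 group means were 94.5 ± 6.26, 99.3 ± 1.94 and 99.5 ± 2 CPM (control, MPTP, irisin then MPTP), and no fold change exceeded 1.05 (smallest adjusted p = 0.879). The difference of the MPTP effect between experiments was -0.16 on the log2 scale (-0.41 to 0.083, adjusted p = 0.955). The 4 other P5-type ATPases, relatives of Atp13a2, had no gene past the threshold and none with an unadjusted p under 0.05. Atp13a3, another polyamine transporter, was at 62.7 ± 6.71 CPM in pre-treatment controls and 70.6 ± 4.11 CPM in MPTP mice (log2 fold change 0.17, SE 0.089, adjusted p = 0.84). Atp13a1, an endoplasmic reticulum dislocase, was at 31.6 ± 0.657 CPM with MPTP and 35.2 ± 1.35 CPM with irisin then MPTP (log2 fold change 0.15, SE 0.083, adjusted p = 0.89).

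Lrrk2 was higher in MPTP mice than in control mice of the pre-treatment experiment with no overlap between the groups, without passing the test over all genes. Lrrk2 was at 20.4, 20.7 and 16.3 CPM in control mice, 21.9, 24.1 and 22.9 CPM in MPTP mice and 23.2, 20.5 and 23.6 CPM in mice given irisin then MPTP. All 3 MPTP mice were above the control mice, while the group given irisin then MPTP overlapped both. MPTP and control did not overlap for 11.6% of all genes tested. MPTP mice were at 1.20 times the control level (1.01 to 1.43, log2 fold change 0.27, SE 0.11, adjusted p = 0.823). Without the lowest control mouse, the third replicate, the log2 fold change was 0.16 (SE 0.098). With all mice, irisin then MPTP was at 1.17 times the control level (0.982 to 1.40, adjusted p = 0.74). It was at 0.976 times the MPTP level (0.818 to 1.16, adjusted p = 0.998). With delayed treatment Lrrk2 stayed between 17.7 and 23.3 CPM, the groups overlapped, and MPTP mice were at 1.05 times the control level (0.888 to 1.24, adjusted p = 0.924). The 17 Rab substrates of LRRK2 and Rab phosphatases had no gene past the threshold and at most 3 with an unadjusted p under 0.05, again with irisin alone against control (8.97% of all genes). Rab3b, a synaptic vesicle Rab, was at 39.5 ± 0.807 CPM there and 46.6 ± 2.24 CPM in control mice (log2 fold change -0.24, SE 0.097, adjusted p = 0.531). Ppm1m, a phosphatase related to the one that reverses Rab phosphorylation by LRRK2, was at 15.8 ± 2.07 and 21.2 ± 1.72 CPM (log2 fold change -0.42, SE 0.17, adjusted p = 0.531).

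Vps35 was the steadiest of the 7 genes between groups. It stayed between 179 and 205 CPM in the pre-treatment experiment and between 154 and 184 CPM in the delayed treatment experiment. Its 8 log2 fold changes were between -0.065 and 0.066, and their 95% intervals lay inside 0.872 to 1.15 times, with a smallest adjusted p = 0.779. Orc6, an origin recognition gene on the other strand, overlaps 171 bases at the Vps35 start and had counts of up to 11.6% of the Vps35 count, and strand use in the counting is not given in the sources used here. The 18 genes of the retromer and WASH complex had no gene past the threshold in any comparison and at most 2 with an unadjusted p under 0.05, for irisin then MPTP versus control (7.12% of all genes). Snx6, a retromer-associated sorting nexin, was at 55.1 ± 0.978 CPM with MPTP and 48.4 ± 0.514 CPM with irisin then MPTP (log2 fold change -0.19, SE 0.058, adjusted p = 0.579). Washc4, a WASH complex subunit, was at 41.8 ± 4.39 CPM in delayed control mice and 48.3 ± 1.72 CPM with irisin alone (log2 fold change 0.21, SE 0.090, adjusted p = 0.545).

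Uchl1 had the largest difference of the 7 genes, in mice given MPTP then irisin. In the delayed treatment experiment Uchl1 was at 589, 480 and 503 CPM in control mice, 456, 435 and 494 CPM with irisin alone, 465, 441 and 471 CPM with MPTP and 416, 427 and 423 CPM with MPTP then irisin. All 3 mice of the last group were below every mouse of the other groups, and MPTP mice were below control mice, while irisin alone overlapped control. MPTP then irisin did not overlap control for 14.6% of all genes tested, MPTP for 10.7% and irisin alone for 8.69%. The share apart from all 3 groups at once was not computed. Between MPTP and control 16.2% of genes did not overlap. MPTP then irisin was at 0.805 times the control level (0.720 to 0.901, log2 fold change -0.31, SE 0.073), with an adjusted p = 0.283. MPTP gave 0.877 times (0.784 to 0.980, adjusted p = 0.512) and irisin alone 0.881 times (0.788 to 0.986, adjusted p = 0.531). Against MPTP, MPTP then irisin was at 0.919 times (0.822 to 1.03, adjusted p = 1).

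Without the first control mouse the log2 fold change of Uchl1 against control was -0.22 (SE 0.058) for MPTP then irisin, -0.10 (SE 0.058) for MPTP and -0.091 (SE 0.058) for irisin alone. With all mice these values were -0.31, -0.19 and -0.18, each with an SE of 0.073. Uchl1 is a neuronal gene. The summed level of 5 neuronal markers was 4380 to 4830 CPM in delayed control mice, 4190 to 4390 CPM with irisin alone, 4050 to 4360 CPM with MPTP and 4160 to 4620 CPM with MPTP then irisin, with none at 0, and its part in the Uchl1 difference was not tested. In the pre-treatment experiment Uchl1 was at 361, 388 and 380 CPM in control mice, 340, 413 and 343 CPM with MPTP and 365, 375 and 374 CPM with irisin then MPTP, groups that overlapped. MPTP mice were there at 0.972 times the control level (0.860 to 1.10, adjusted p = 0.977). The MPTP effect on Uchl1 differed between experiments by -0.14 on the log2 scale (-0.36 to 0.087, adjusted p = 0.972). This difference ranged from -0.20 to -0.047 when single mice were left out.

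The antisense gene Uchl1os, whose RNA is known to promote translation of Uchl1, shares 408 bases with it and had 0 to 60 counts per mouse, at most 0.22% of the Uchl1 count. The 8 ubiquitin genes and other UCH deubiquitinases had no gene past the threshold in any comparison and at most 1 with an unadjusted p under 0.05, in comparisons where 6.22% to 9.31% of all genes had one. Uchl3, the closest relative of Uchl1 in the list, was at 26.1 ± 1.80 CPM in pre-treatment controls and 22.7 ± 1.57 CPM with MPTP (log2 fold change -0.20, SE 0.093, adjusted p = 0.823).

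**Figure D3:**
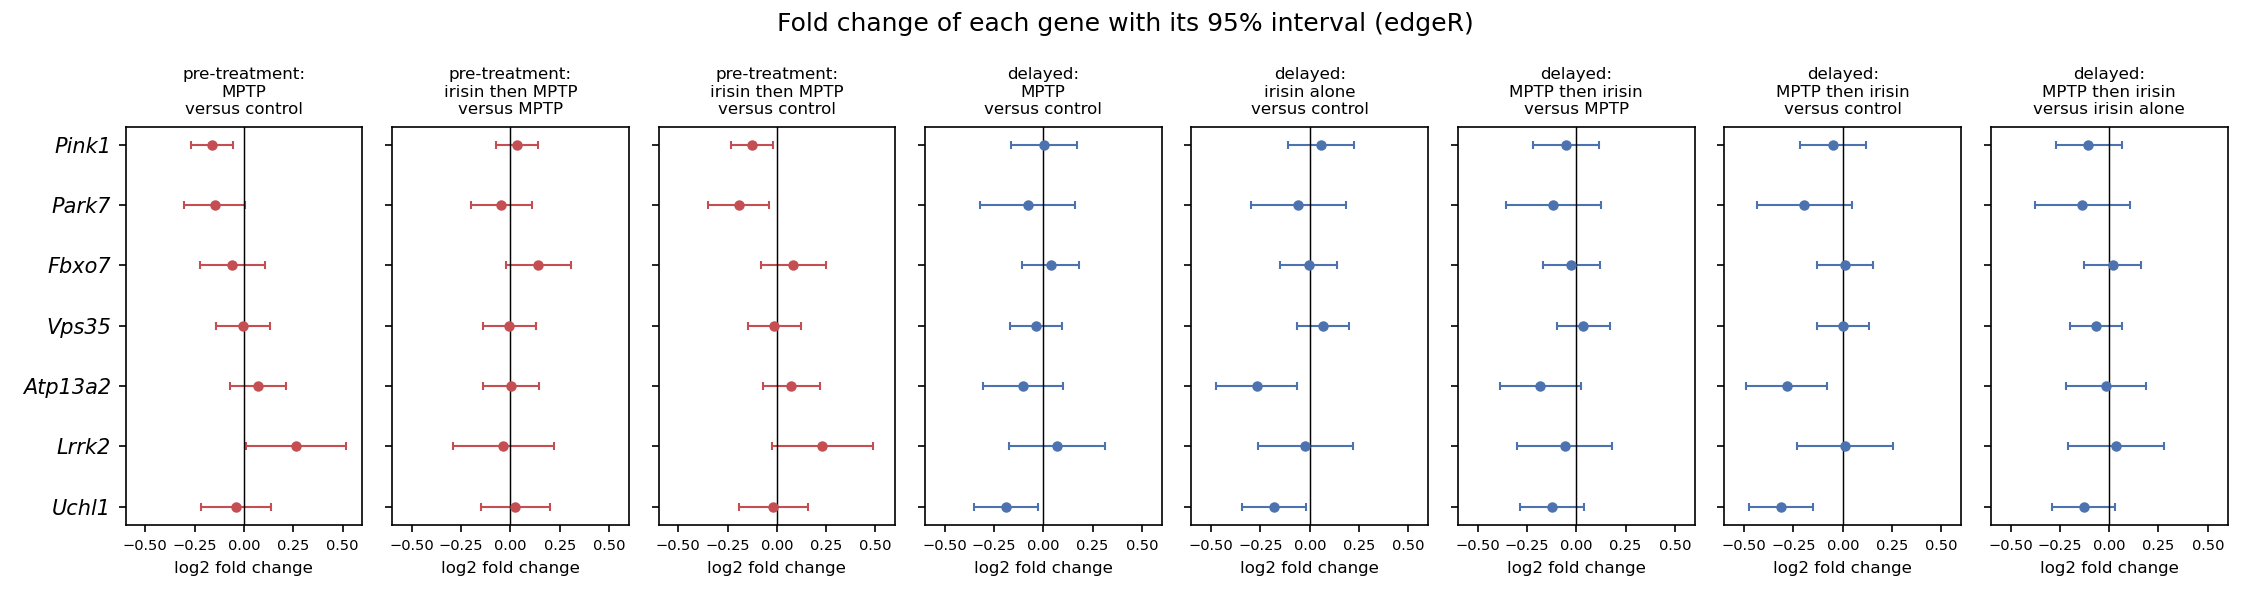
Log2 fold change of each gene (dot) with its 95% interval (bar) in the 8 comparisons between groups, pre-treatment in red and delayed treatment in blue, with a line at 0. The lowest dot is Uchl1 for MPTP then irisin versus control at -0.31 and the highest is Lrrk2 for MPTP versus control at 0.27; none passed the test over all genes.

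The counts of the 7 genes are set here against those of all genes. In MPTP versus control of the pre-treatment experiment, 0 of 7 passed the adjusted threshold against 0.0221% of 22641 genes tested, 2 of 7 (Lrrk2 and Pink1) had an unadjusted p under 0.05 against 6.03%, and the same 2 did not overlap between groups against 11.6%. For irisin then MPTP versus MPTP all 3 counts were 0, against 0.0707%, 6.22% and 14.2% of all genes. For irisin then MPTP versus control 0 passed (0.0707% of all genes), 2 had an unadjusted p under 0.05 (Park7 and Pink1, against 7.12%) and the same 2 did not overlap (against 13.6%). With so few genes, 1 gene is already a larger share than any of these backgrounds for unadjusted p, and nothing particular to the list is read from them.

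In the delayed treatment experiment 0 of 7 passed in MPTP versus control (0.132% of 21922 genes), 1 had an unadjusted p under 0.05 (Uchl1, against 8.33%) and did not overlap (against 16.2%). For irisin alone versus control 0 passed (0.109%), 2 had an unadjusted p under 0.05 (Uchl1 and Atp13a2, against 8.97%) and Atp13a2 did not overlap (against 15.1%). For MPTP then irisin versus MPTP 0 passed (0.00456%), 0 had an unadjusted p under 0.05 (against 3.9%) and Uchl1 did not overlap (against 10.7%). MPTP then irisin versus control gave 0 passing (0.109%), 2 with an unadjusted p under 0.05 (Uchl1 and Atp13a2, against 9.31%) and the same 2 without overlap (against 14.6%). In MPTP then irisin versus irisin alone the counts were 0 (0.00456%), 0 (3.88%) and 1 (Uchl1, 8.69%). DESeq2 gave 0 calls among the 7 genes in every comparison too. The counts at an unadjusted p under 0.05 were the same with DESeq2, but both limma fits and the replicate block gave 1 in place of 2 for MPTP versus control of the pre-treatment experiment. Leaving out 1 mouse gave 1 to 3 there, 0 to 3 for irisin then MPTP versus control, 0 to 1 for delayed MPTP versus control, 0 to 2 for irisin alone versus control and 1 to 3 for MPTP then irisin versus control, and up to 2 in the comparisons with a count of 0. The median log2 fold change of the 7 genes was between -0.065 and 0.003 over the 8 comparisons, and that of all genes between -0.002 and 0.004.

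Whether irisin acted differently with and without MPTP was asked by the interaction in the delayed treatment experiment. None of the 7 genes passed (0.0411% of all genes did) and none had an unadjusted p under 0.05 (against 5.57%). Their interaction estimates were between -0.11 (Pink1, 95% interval -0.35 to 0.13) and 0.087 (Atp13a2, -0.20 to 0.38) on the log2 scale, with a smallest adjusted p = 0.951. The difference of the MPTP effect between the experiments, in a fit of all 21 mice, likewise had 0 of 7 genes passing (0.103% of 23364 genes) and 0 with an unadjusted p under 0.05 (against 5.68%), with estimates from -0.19 (Lrrk2) to 0.18 (Pink1). MPTP was given in the last 5 days in one experiment and in the first 5 days in the other, so that time since MPTP and the experiment cannot be told apart.

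The list of 24 other genes linked to PD had no gene past the threshold in any of the 8 comparisons and at most 3 with an unadjusted p under 0.05, for MPTP then irisin versus control (9.31% of all genes), and its median log2 fold change was between -0.039 and 0.037. Scarb2, the receptor that carries glucocerebrosidase to lysosomes, was at 203 ± 3.43 CPM in control mice and 220 ± 3.94 CPM with irisin alone (log2 fold change 0.12, SE 0.043, adjusted p = 0.501).

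Between the control groups of the 2 experiments, which were deposited and scaled separately and were not tested, Atp13a2 differed most. It was at 94.5 CPM in pre-treatment controls and 174 CPM in delayed controls, a ratio of 1.84 that 12.2% of 21153 genes exceeded in size. Uchl1 was at 376 and 524 CPM, a ratio of 1.39 that 35.6% of genes exceeded. The other 5 genes had ratios between 0.855 (Vps35) and 1.16 (Pink1). For Atp13a2, Uchl1, Vps35 and Pink1 this gap between experiments was larger in size than any of their fold changes between treatments. For Lrrk2, Park7 and Fbxo7 it was smaller than the largest of theirs.

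Within groups the 7 genes varied less than the median gene tested. Their SD within groups on the log2 scale was 0.0351 (Pink1) to 0.136 (Lrrk2) in the pre-treatment experiment and 0.0685 (Vps35) to 0.146 (Park7) in the delayed treatment experiment, against a median over all genes of 0.267 and 0.254. Lrrk2, the least abundant, was also among the most variable of the 7 in both. By mean level the 7 genes stood between percentile 63.3 (Lrrk2) and 99.1 (Pink1) of all genes tested, both with delayed treatment. The median over all genes was not matched for level, so that a low spread particular to these genes is not shown.

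Over the 21 mice, after subtracting each experiment's mean, the pair of the 7 genes most alike was Park7 and Pink1 (Pearson's r = 0.756, Spearman's rho = 0.705, r = 0.633 without the 2 mice farthest from the median of Park7). The other 20 pairs had r from -0.524 (Lrrk2 and Pink1) to 0.587 (Uchl1 and Atp13a2), and the last fell to 0.054 without 2 mice. These values are descriptions, since the mice share groups and the scaling of their experiment.

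Of all 21152 genes compared in this way, those most like Uchl1 were Tubb3, the neuronal tubulin (r = 0.857, rho = 0.755, 0.691 without 2 mice), and Acot7, a brain acyl-CoA thioesterase (r = 0.843, rho = 0.806). Tubb3 was at 647 ± 66.0 CPM in delayed control mice, 558 ± 35.5 CPM with irisin alone, 584 ± 25.1 CPM with MPTP and 551 ± 37.6 CPM with MPTP then irisin. The genes most like Pink1 were Ndufs3, a complex I subunit (r = 0.855, rho = 0.831), and Sox8, a transcription factor of glia (r = 0.809, rho = 0.764).

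The genes most like Park7 were Hspbp1 (r = 0.831), a cochaperone of Hsp70, and Rnf187 (r = 0.802), a ubiquitin ligase. For Atp13a2 they were the neuropeptide gene Sst (r = 0.836) and Nxph4 (r = 0.825). Those of Lrrk2 were the calcium pump Atp2b3 (r = 0.859) and the synaptic scaffold Lin7a (r = 0.823). Those of Vps35 were the actin capping gene Capza2 (r = 0.821) and the translation factor Eif2s2 (r = 0.77). For Fbxo7 they were the heme-regulated kinase Eif2ak1 (r = 0.823) and Abat (r = 0.77), which breaks down GABA. Without the 2 mice farthest from the member's median, r in this paragraph ran from 0.608 (Nxph4) to 0.811 (Hspbp1). It was then 0.694 for Sst, 0.673 for Atp2b3, 0.645 for Lin7a and 0.615 for Capza2. All were over the same 21 mice that enter the comparisons, so that levels by group that resemble those of the member follow from how these genes were chosen.

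**Figure D4:**
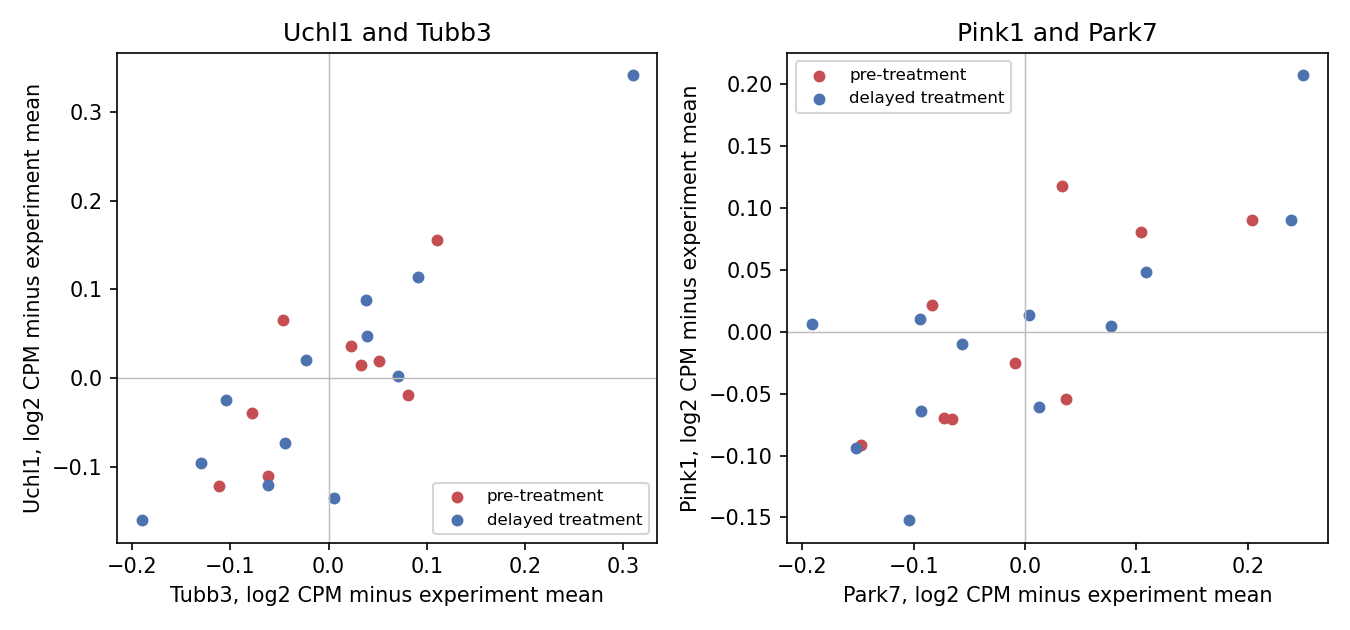
Log2 CPM minus the experiment's mean in each of the 21 mice, Uchl1 against Tubb3 (left) and Pink1 against Park7 (right), 1 dot per mouse, pre-treatment in red and delayed treatment in blue. Pearson's r was 0.857 on the left, where 1 delayed control mouse is highest on both axes, and 0.756 on the right.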

How the data were processed

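Genes were counted with featureCounts by the authors, and the raw counts and FPKM values per mouse were deposited in 1 table per experiment. The submitters' processing notes name HISAT, StringTie, edgeR and the build mm9, without versions, while the deposited coordinates of the 7 genes fit GRCm38.

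The two-sided quasi-likelihood test of edgeR 4.0.16 (R 4.3.3) was run on the counts after filterByExpr (minimum count 10, minimum total 15) and TMM scaling, with all groups of an experiment in one fit and all 21 mice in one fit for the difference between experiments. Adjusted p-values are Benjamini-Hochberg values over all genes tested. SE is the log2 fold change divided by the square root of F, and 95% intervals use its t quantile. FPKM values, as the authors deposited them, gave the order of genes and an alternative with limma 3.58.1 on log2(FPKM + 1) or log2(FPKM + 0.1). The first scale understates changes of low genes more than the second. For Lrrk2 in MPTP versus control of the pre-treatment experiment they gave 0.169 and 0.262, against 0.265 with edgeR. Further alternatives were median ratio scaling, any gene with a count, DESeq2 1.42.0, only the compared groups, the replicate number as a block, and leaving out each mouse. Steps were tested on simulated data.

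The members and lists were chosen with earlier results of these data known. Beside the 7 genes, the text names from each list the genes past the threshold or else the 2 with the smallest unadjusted p over the 5 comparisons that change 1 agent, the genes overlapping a member, and the 2 genes most like each member by Pearson's r of log2 CPM. Some genes selected in this way are not reported here. Mice within groups were compared, and no pair had identical counts or counts within sampling noise (smallest chi-square per gene 39.7 over 21 pairs). With 3 mice a group, edgeR's p-values set a group difference against the spread of these samples, pooled over the fit's groups and moderated across genes.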

Additional observations from a re-analysis of the deposited data

How the results depend on the processing

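None of the 7 genes passed the threshold in any of 188 alternative counts, and of 1316 alternative values 1304 moved by less than 1 SE, 12 by more, and 70 changed sign, none of them past the threshold. The smallest adjusted p was 0.052 (Uchl1 for MPTP then irisin versus control, log2 fold change -0.305, with DESeq2), against 0.283 with edgeR. Without single mice that value ranged from -0.369 to -0.221, that of Atp13a2 from -0.37 to -0.176, and that of Lrrk2 for MPTP versus control in the pre-treatment experiment from 0.157 to 0.325. Without the second MPTP mouse the value of Uchl1 in that comparison was -0.137.

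Counts of all genes passing depended more on the tool. In the order of the 10 comparisons in the report edgeR called 5, 16, 16, 29, 24, 1, 24, 1, 9 and 24 genes and DESeq2 104, 194, 216, 191, 158, 31, 157, 36, 65 and 82. Leaving out 1 mouse gave 4 to 17, 10 to 26, 5 to 20, 16 to 35, 16 to 29, 1 to 7, 15 to 27, 0 to 10, 7 to 19 and 13 to 33. With only the 2 compared groups the first 8 counts were 10, 21, 12, 10, 14, 9, 10 and 3. Under limma on log2(FPKM + 1) the third was 6, the ninth 3 and the tenth 8, and with any gene with a count the third was 9 and the sixth 2.

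No sign of pairing by replicate number was seen. The correlation of same-numbered mice was -0.069 to 0.0905 (9 pairs, pre-treatment) and -0.0756 to 0.0401 (18 pairs, delayed treatment). For mice with different numbers it was -0.0993 to 0.126 and -0.0736 to 0.0826. Low correlations do not show that mice were unpaired, and the labels give no pairing. With the replicate block 0 of the 7 genes passed (smallest adjusted p 0.404, Uchl1), and 2, 8, 2, 17, 14, 1, 13, 1, 7 and 12 of all genes did. With 3 mice a group, the median interval half-width of 0.16 on the log2 scale limits what could be seen, and depth does not, as the lowest count of the 7 genes was 857.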
